A study of Homo sapiens with 6 samples.

Results

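This account describes 49 genes of transforming growth factor beta (TGF-beta) and bone morphogenetic protein (BMP) signaling in U2OS, a human osteosarcoma cell line, after loss of NUDT5, a NUDIX hydrolase that cleaves ADP-ribose. The genes were picked by symbol from the 19977 genes of the deposited expression table: ligands, latency proteins, receptors, SMADs, antagonists, corepressors, and ID and other target genes. All 49 were found. Values are in TPM, which correct read numbers for the length of each transcript and the size of each library, so levels can be compared between genes. Cells grown in serum were transfected with a non-targeting control siRNA (siCtrl, 3 libraries) or an siRNA against NUDT5 (siNUDT5, 3 libraries), were otherwise untreated, and gave RNA 48 hours later. The labels do not say whether the libraries are separate cultures, so each p-value reflects only how these libraries vary, which may be technical variation. Where 3 values are given for a group, they are in the order of replicates 1 to 3.

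TGF-beta, activin and BMP ligands are secreted dimers that bring type II and type I receptor kinases together on the cell surface. The type I receptor then phosphorylates a receptor-regulated SMAD, which joins SMAD4 and enters the nucleus. TGF-beta and activin act mainly through SMAD2 and SMAD3, and BMPs mainly through SMAD1, SMAD5 and SMAD9. Induced genes such as SMAD7, SMAD6, BAMBI, SKIL and PMEPA1 feed back to dampen the signal. In bone, BMPs drive osteoblast formation, while latent TGF-beta is stored in the matrix.

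The knockdown was present in every library labelled siNUDT5. NUDT5 stood at 46.2, 49.0 and 52.0 TPM in the siCtrl libraries and 3.04, 2.74 and 2.67 TPM in the siNUDT5 libraries. Its log2 estimate was -3.71 (standard error 0.0982, adjusted p = 1.32e-06, limma). The steps between the lowest values put the depth of the other libraries at 64.1% to 118% of that of siCtrl 1. The shallowest, siCtrl 2, also stood apart in expression. Its median absolute difference from the other siCtrl libraries was 0.227 to 0.296 on the log2(TPM + 1) scale, and no other within-group pair exceeded 0.134. Of 7 mesenchymal markers, VIM, SPARC and COL1A1 stood at 318 TPM or more in every library, while COL1A2 and TWIST1 stayed under 1 TPM. The 7 summed to 4187 to 4448 TPM in siCtrl and 4855 to 4954 TPM in siNUDT5, with VIM the largest term (mean 3115 ± 80.7 and 3551 ± 37.9 TPM, SD, n = 3 per group). None of the 5 tested was called (VIM adjusted p = 0.0551, limma), and CDH2 had a negative log2 change (-0.17, adjusted p = 0.386). Blood markers summed to at most 0.328 TPM in any library. The osteoblast marker ALPL was higher in siNUDT5 (log2 change 0.49, adjusted p = 0.0472, limma) and the epithelial marker EPCAM lower (-0.74, adjusted p = 0.0271). Of 4 osteoblast markers 3 were under 1 TPM throughout, with SP7 listed at 0, and the 4 summed to 6.01 to 7.70 TPM in siCtrl and 8.84 to 11.8 TPM in siNUDT5. Of 3 epithelial markers 1 was under 1 TPM throughout, and the 3 summed to 9.57 to 14.9 TPM and 7.203 to 7.62 TPM. The part of these marker differences in the results was not tested.

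Of the 49 genes, 11 were higher in siNUDT5, 1 was lower, 34 were not past the threshold and 3 were too low to test. The higher genes were the ligands TGFB1 and BMP7, the latency protein gene LTBP1, the receptor genes TGFBR2 and TGFBR3, the antagonist gene FSTL3, SMAD5, the inhibitory SMAD7, the corepressor gene SKI and the target genes PMEPA1 and TGFBI. The lower gene was TGFBR1, which encodes the type I receptor for TGF-beta. A call means a Benjamini-Hochberg adjusted p under 0.05 in limma's two-sided test on log2(TPM + 1), adjusted over the 12236 genes whose mean over the 6 libraries reached 1 TPM. Over those genes 16.1% were called, 10.9% as higher and 5.20% as lower. That was 1334 genes higher and 636 lower, against 1034 and 904 after median-ratio scaling and 1018 and 965 after quantile normalization. Among the 46 tested members 26.1% were called, 23.9% as higher and 2.17% as lower. The members' median log2 change was 0.093 and that of all tested genes 0.048. The members were chosen with earlier results of these data known, so these shares and medians are a description. In 20 tested members the values of the 2 groups did not overlap, 16 higher and 4 lower in siNUDT5. Over all tested genes 37.3% had groups that did not overlap. Fewer cells of a type and less RNA per cell cannot be told apart in such bulk samples.

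**Figure D1:**
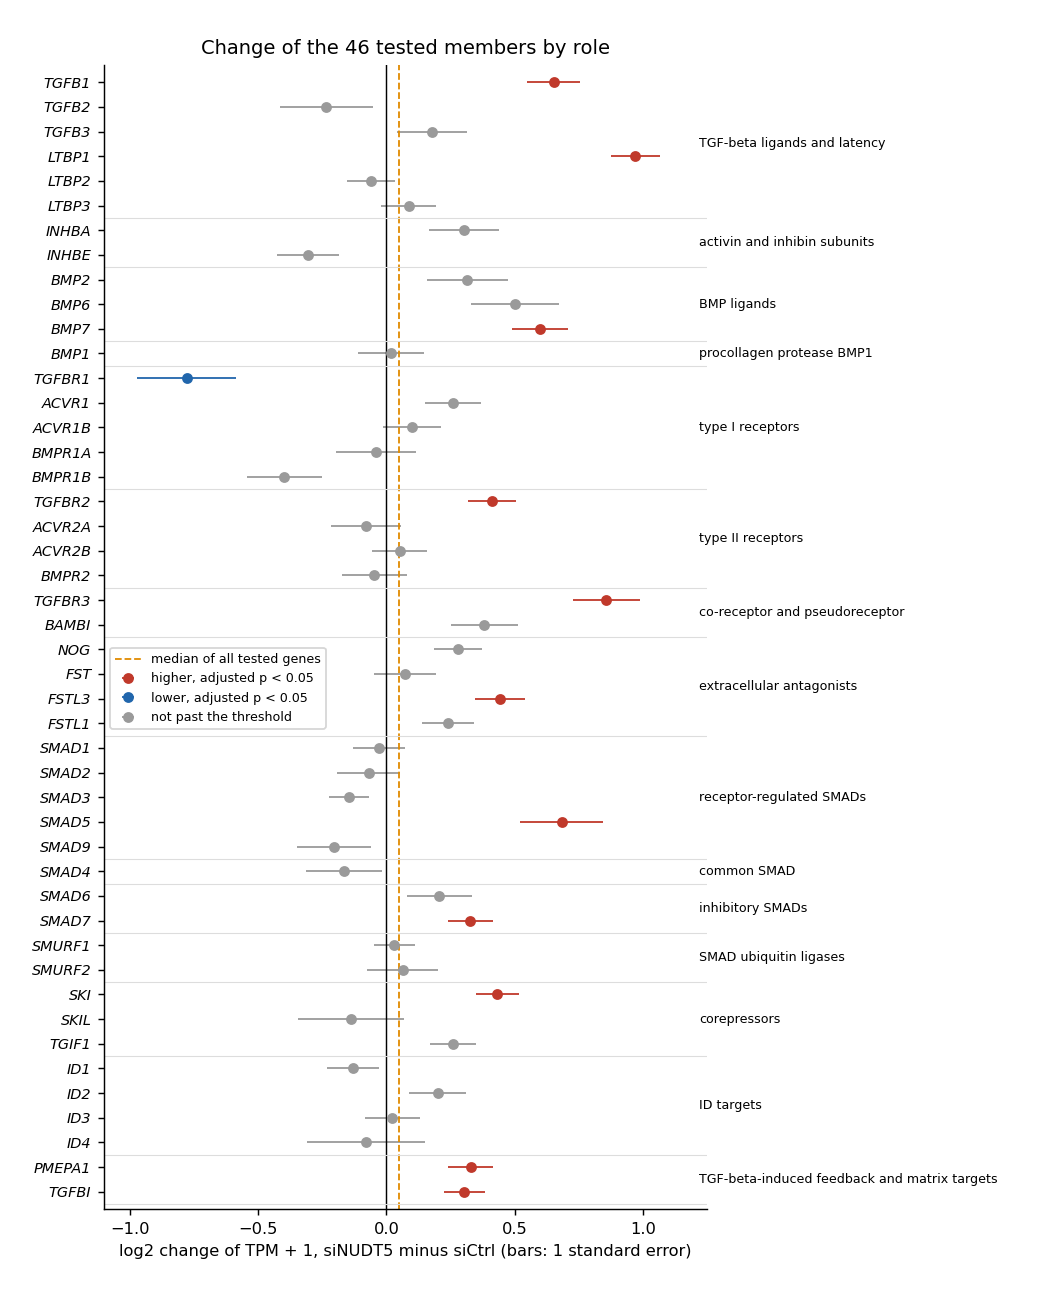
Log2 change of TPM + 1 (x axis, siNUDT5 minus siCtrl) of the 46 tested members, arranged by role, with bars of 1 standard error. The 11 genes in red lie between 0.30 and 0.97, TGFBR1 in blue lies at -0.78, and the dashed line marks the median of all tested genes at 0.048.

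The calls rested on all 6 libraries to different degrees. TGFB1, LTBP1 and TGFBR3 stayed past the threshold under all 13 alternatives of the processing, with highest adjusted p of 0.0334, 0.0105 and 0.0318 (limma). BMP7 lost its call without siNUDT5 2 (0.0542). The other 8 each lost theirs without siCtrl 3 and without any 1 siNUDT5 library. Their highest adjusted p in those 4 fits was 0.106 for TGFBR1, 0.0956 for TGFBR2, 0.0948 for FSTL3, 0.0979 for SMAD5, 0.154 for SMAD7, 0.0699 for SKI, 0.154 for PMEPA1 and 0.147 for TGFBI. SMAD7 and TGFBI also lost theirs without siCtrl 1 (adjusted p = 0.0675 for each). With a block for the replicate number, BMP7 and these 8 genes all lost their calls, BMP7 with adjusted p = 0.0542 (limma). Without siCtrl 2, the library that stood apart, all 12 kept their calls and 9 more members were called. There 19 were higher and 2 lower, against 21.9% and 9.27% of all genes tested in that fit. All 12 log2 changes kept their sign under all 13 alternatives. TGFB1, LTBP1, SMAD5 and PMEPA1 share exonic bases with a gene on the opposite strand in GENCODE 29, and whether counting used the strand is not given, so their values may hold reads of that partner.

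**Figure D2:**
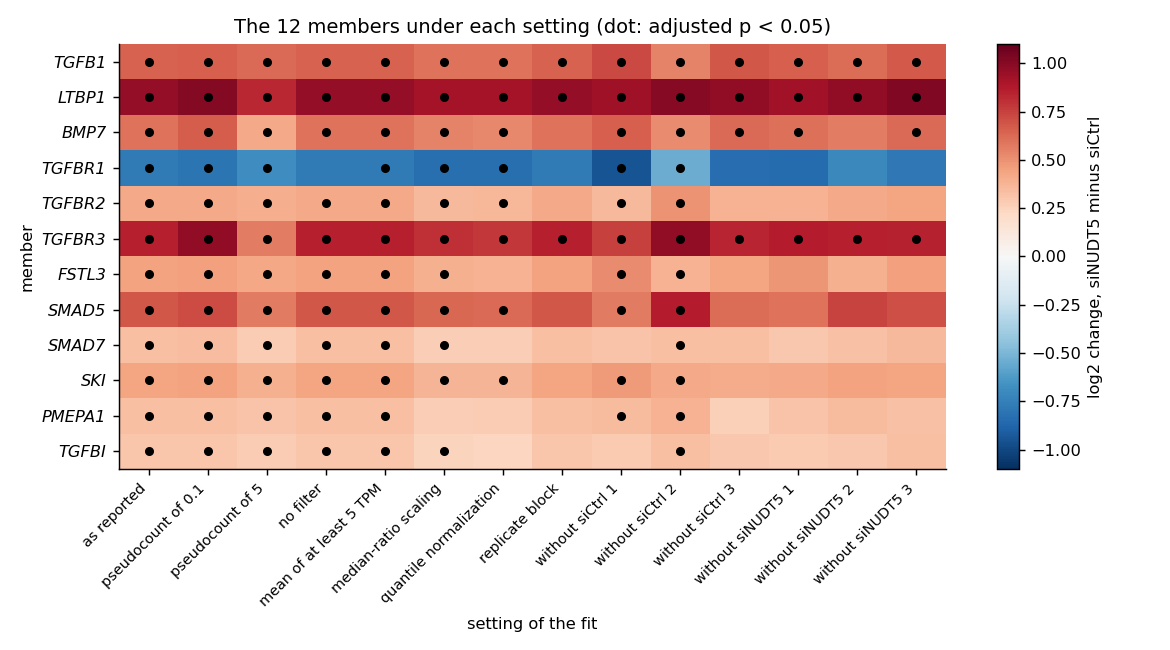
Log2 change (colour, siNUDT5 minus siCtrl) of the 12 called members (rows) in the reported fit and under each of 13 alternatives (columns), with a dot where the adjusted p was under 0.05. Each row keeps its sign. Dots are missing mostly where siCtrl 3 or a siNUDT5 library was left out, and where the replicate number was a block.

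TGF-beta is made as a latent complex with its propeptide, which some LTBP proteins, LTBP1 among them, tether to the matrix. TGFB1, the best studied of the ligands, stood at 90.7, 70.6 and 84.8 TPM in the siCtrl libraries and 127, 135 and 124 TPM in the siNUDT5 libraries. Each siNUDT5 value lay above each siCtrl value, and siCtrl 2 was the lowest. It rose from a mean of 82.0 ± 10.3 to a mean of 129 ± 5.40 TPM (SD, n = 3 per group), with a log2 change of 0.65 (standard error 0.104, adjusted p = 0.00556, limma). TGFB2 was the most abundant ligand gene of the set, at 172, 286 and 185 TPM in the siCtrl libraries and 199, 161 and 174 TPM in the siNUDT5 libraries. Its groups overlapped, siCtrl 2 was far above the other 5 libraries, and the log2 change of -0.23 was not past the threshold (adjusted p = 0.424). The TPM ratio of TGFB1 to TGFB2 ran from 0.247 to 0.527 in siCtrl and from 0.637 to 0.840 in siNUDT5. TGFB3 was low, between 4.93 and 7.70 TPM in all libraries, with overlapping groups.

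LTBP1, which binds the latent complex, had the largest log2 change of the 46 tested genes. It stood at 15.5, 17.2 and 16.6 TPM in the siCtrl libraries and 35.5, 32.9 and 31.0 TPM in the siNUDT5 libraries. The siNUDT5 libraries were close together and far above siCtrl, with means of 16.4 ± 0.895 and 33.1 ± 2.28 TPM (SD, n = 3 per group). The log2 difference came to 0.97 (standard error 0.0952, adjusted p = 0.000861, limma). LTBP2, a related matrix protein that is the more abundant transcript, was at 54.8 ± 4.67 TPM in siCtrl and 52.5 ± 2.53 TPM in siNUDT5 (SD, n = 3 per group) and was not past the threshold (log2 change -0.060, adjusted p = 0.713). The TPM ratio of LTBP1 to LTBP2 was 0.302 ± 0.0421 in siCtrl and 0.631 ± 0.0158 in siNUDT5 (SD, n = 3 per group). LTBP3 lay between 5.00 and 6.16 TPM with overlapping groups. LTBP4, outside the 49 and named after its values were seen, stood at 20.9, 13.7 and 17.7 TPM in the siCtrl libraries and 11.8, 12.9 and 10.9 TPM in the siNUDT5 libraries. Each siNUDT5 value was below each siCtrl value, and the log2 change of -0.50 missed the threshold (adjusted p = 0.0569).

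**Figure D3:**
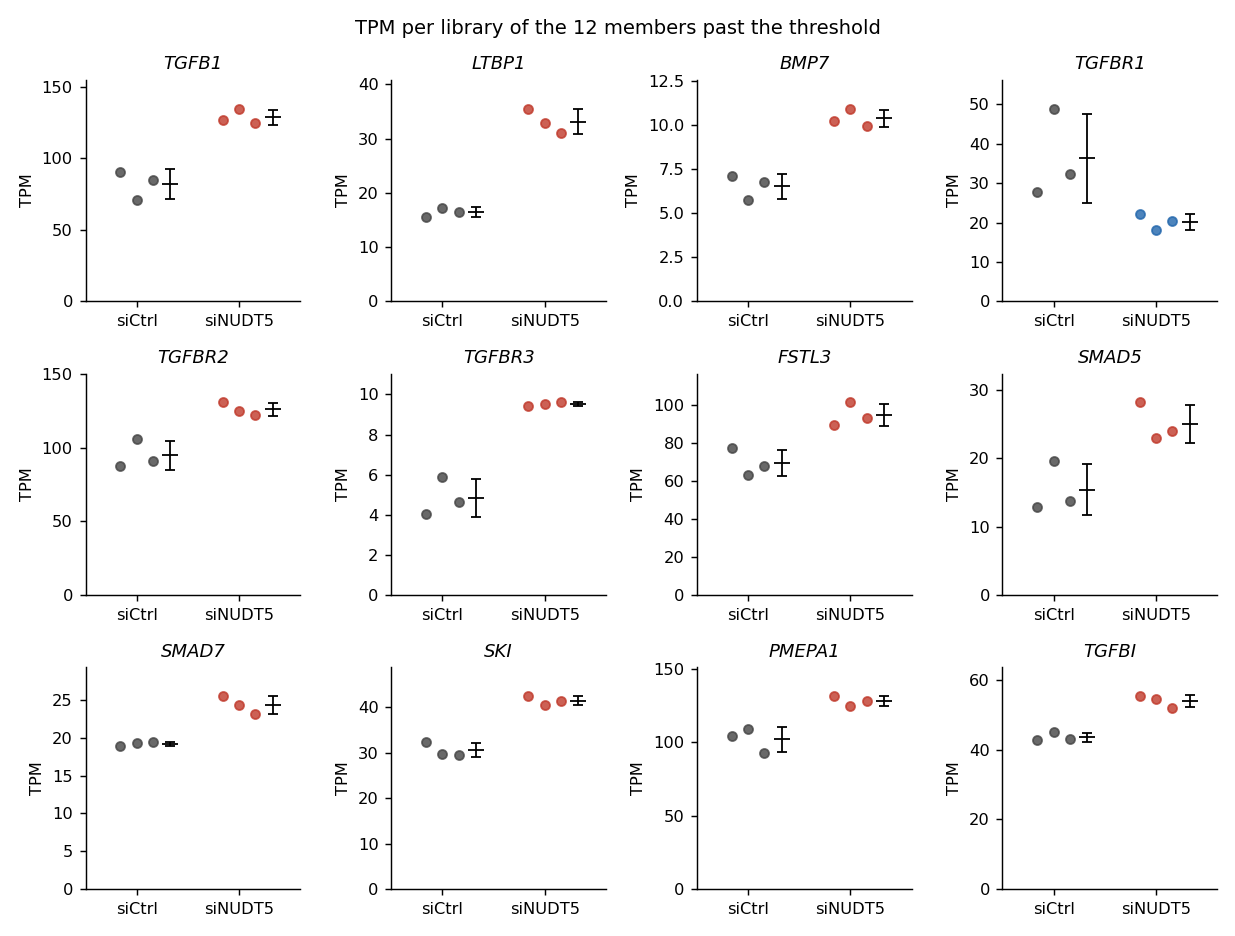
TPM (y axis, from 0) in each library for the 12 called members, with siCtrl at left in grey and siNUDT5 at right in red (higher) or blue (lower), replicates 1 to 3 from left to right, and mean and SD beside the points. The groups do not overlap in any panel, and siCtrl 2 is the highest or lowest siCtrl library in every panel but those of SMAD7 and SKI.

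Activins are dimers of inhibin beta chains and signal like TGF-beta through SMAD2 and SMAD3. INHBA, the chain of activin A, was the most abundant of them at 87.5, 117 and 83.3 TPM in the siCtrl libraries and 128, 107 and 117 TPM in the siNUDT5 libraries. The groups overlapped through siCtrl 2, which lay within the siNUDT5 range, and the log2 change of 0.30 was not past the threshold (adjusted p = 0.169, limma). Without siCtrl 2 it was 0.45 with adjusted p = 0.00126. INHBE was near the floor of the test, at 1.67 to 2.19 TPM in siCtrl and 1.24 to 1.44 TPM in siNUDT5. Its groups did not overlap, yet it was not past the threshold (log2 change -0.31, adjusted p = 0.125). INHBB had a mean under 1 TPM and was not tested. It rested on 1 read in each siCtrl library and in siNUDT5 1, and on 3 reads in siNUDT5 2 and 3, counted in the smallest whole numbers that fit its values within 2%.

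Of the 3 BMP ligand genes tested among the 49, BMP7 was called and BMP2 and BMP6 were not. BMP7, an osteogenic ligand, stood at 7.10, 5.75 and 6.77 TPM in the siCtrl libraries and 10.3, 10.95 and 9.97 TPM in the siNUDT5 libraries. The groups were well apart, with means of 6.54 ± 0.701 and 10.4 ± 0.504 TPM (SD, n = 3 per group), a log2 change of 0.60 (standard error 0.110, adjusted p = 0.00920, limma). BMP6 stood at 2.45, 3.92 and 2.29 TPM in the siCtrl libraries and 4.21, 5.08 and 3.98 TPM in the siNUDT5 libraries. Its groups did not overlap, though siCtrl 2 and siNUDT5 3 were within 0.1 TPM of each other, and the change of 0.50 missed the threshold (adjusted p = 0.0842). BMP2 overlapped between groups (log2 change 0.32, adjusted p = 0.211). Without siCtrl 2 both passed, BMP6 with adjusted p = 0.00190 and BMP2 with 0.0192. BMP5, a ligand outside the 49 and named after its values were seen, was far more abundant than these, at 52.4, 69.3 and 54.6 TPM in the siCtrl libraries and 60.9, 52.3 and 51.7 TPM in the siNUDT5 libraries. Its groups overlapped, and the log2 change of -0.088 was not past the threshold (adjusted p = 0.684). The summed TPM of BMP2, BMP6, BMP7 and BMP8B was 13.7, 16.3 and 14.5 in siCtrl 1 to 3 and 22.2, 22.4 and 20.5 in siNUDT5 1 to 3. With BMP5 added the sums were 66.0, 85.6 and 69.0 in siCtrl and 83.1, 74.7 and 72.1 in siNUDT5, and the groups overlapped. BMP8B, whose sequence is nearly shared with BMP8A, was not tested. It rested on at most 3 reads in any library, in the smallest whole numbers that fit its values. BMP1, which despite its name is a procollagen protease, was at 14.0 ± 2.16 TPM in siCtrl and 14.1 ± 1.202 TPM in siNUDT5 (SD, n = 3 per group; log2 change 0.018, adjusted p = 0.947).

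The 2 receptor kinases that bind TGF-beta moved in opposite directions. TGFBR1, the type I receptor, stood at 27.6, 48.9 and 32.2 TPM in the siCtrl libraries and 22.1, 18.1 and 20.3 TPM in the siNUDT5 libraries. Every siNUDT5 library was below every siCtrl library, and siCtrl 2 was the highest by a wide margin. It fell from a mean of 36.3 ± 11.2 to a mean of 20.2 ± 2.02 TPM (SD, n = 3 per group), with a log2 change of -0.78 (standard error 0.192, adjusted p = 0.0287, limma). Without siCtrl 2 the log2 change was -0.55 with adjusted p = 0.00171, and without a filter on low genes the call was lost (adjusted p = 0.0560). TGFBR2, the type II receptor, stood at 87.4, 106 and 91.0 TPM in the siCtrl libraries and 131, 125 and 123 TPM in the siNUDT5 libraries. Its groups did not overlap, and it rose by 0.41 on the log2 scale (standard error 0.0930, adjusted p = 0.0209). The TPM ratio of TGFBR2 to TGFBR1 was 3.16, 2.17 and 2.82 in siCtrl 1 to 3 and 5.91, 6.90 and 6.05 in siNUDT5 1 to 3, so the TGFBR2 transcript was the more abundant in all 6 libraries.

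TGFBR3, or betaglycan, is a co-receptor that presents TGF-beta, above all TGFB2, to the kinases. It stood at 4.04, 5.88 and 4.65 TPM in the siCtrl libraries and 9.42, 9.51 and 9.600 TPM in the siNUDT5 libraries. The siNUDT5 libraries lay within 0.2 TPM of each other, and siCtrl 2 was the siCtrl library nearest to them. It rose by 0.86 on the log2 scale (standard error 0.130, adjusted p = 0.00457, limma). BAMBI, a decoy that resembles a type I receptor but has no kinase, stood at 4.78, 5.76 and 6.89 TPM in the siCtrl libraries and 7.504, 7.95 and 7.95 TPM in the siNUDT5 libraries. Its groups did not overlap, and it missed the threshold (log2 change 0.38, adjusted p = 0.0839).

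None of the 7 other receptor kinase genes was called. ACVR1, a type I receptor of BMPs, stood at 22.6, 26.0 and 23.3 TPM in the siCtrl libraries and 32.4, 26.1 and 28.3 TPM in the siNUDT5 libraries. The lowest siNUDT5 value was just above the highest siCtrl value, and the log2 change of 0.26 was not past the threshold (adjusted p = 0.145, limma). BMPR1B, another BMP type I receptor, was lower in each siNUDT5 library, at 3.94, 5.68 and 4.77 TPM in the siCtrl libraries and 3.79, 2.85 and 3.52 TPM in the siNUDT5 libraries (log2 change -0.40, adjusted p = 0.103). It passed without siCtrl 1 (adjusted p = 0.0482). BMPR1A, ACVR1B, ACVR2A, ACVR2B and BMPR2 overlapped between groups, with log2 changes between -0.080 and 0.10. The summed TPM of the BMP type I receptors ACVR1, BMPR1A and BMPR1B was 41.8 ± 5.67 in siCtrl and 44.8 ± 4.65 in siNUDT5 (SD, n = 3 per group), a difference within the spread.

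**Figure D4:**
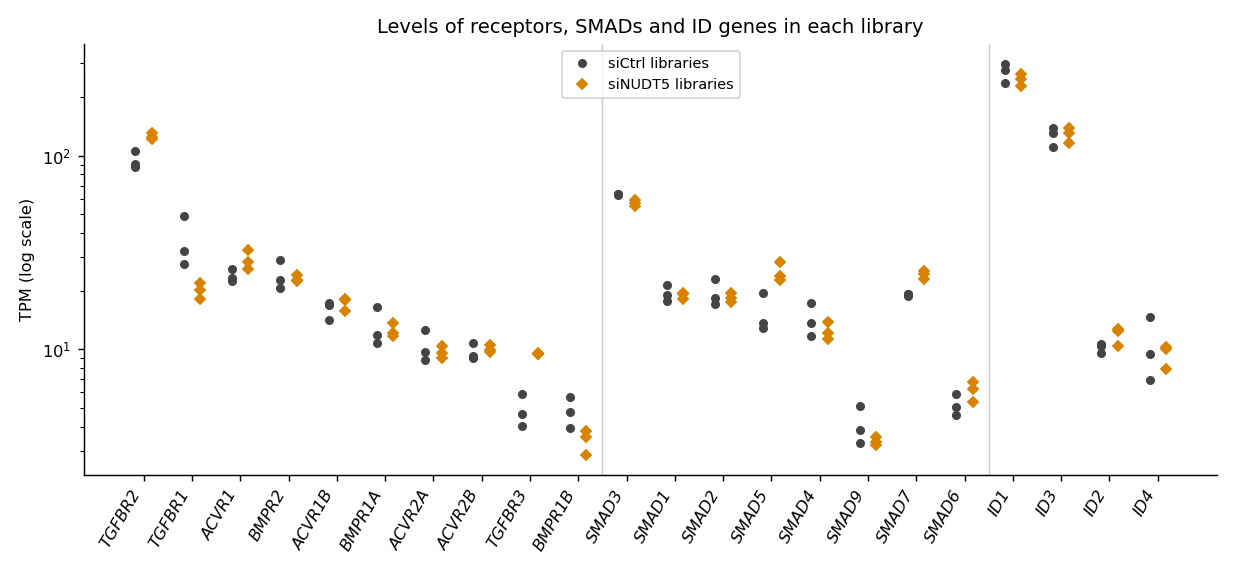
TPM on a log axis in each siCtrl (grey circles) and siNUDT5 (orange diamonds) library for receptor genes (left), SMAD genes (middle) and ID genes (right). TGFBR2 and TGFBR1 move apart, SMAD5 shifts up among the SMADs, and the circles and diamonds of all 4 ID genes overlap.

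In TGFBR1 and SMAD5 the annotated 3' UTR held short words that had been picked, in an earlier pass over these same log2 changes, as common among genes of the whole table that fell (AAGACTT and also AGACTTA) or rose (GATTAAC). They are shown because both genes were called. The sites are read from GENCODE 29 transcripts, on the RNA's strand with T for U, with the word in capitals and 9 bases on either side.
TGFBR1 base 1101: atctgttcaAAGACTTattttttaa
TGFBR1 base 1102: tctgttcaaAGACTTAttttttaag
TGFBR1 base 1665: ctctgaggcAAGACTTcgactttat
SMAD5 base 185: tgttcatgtGATTAACtcttagaag
Bases are counted from the start of the 3' UTR, which is 4887 bases long in TGFBR1 and 5254 in SMAD5. The first 2 sites of TGFBR1 are the same stretch, shifted by 1 base. AAGACTT or AGACTTA was held by 14 of the 46 tested members and by 24.2% of 11481 searched genes. Of the 14, TGFBR1 was lower, none was higher and 13 were not past the threshold, BMPR1A, SMAD2 and SMAD4 among them. Of the 2778 searched genes with either word, 241 were higher, 256 lower and 2281 not past the threshold. The median log2 change of the 14 was -0.0044 and that of the other 32 was 0.19, against -0.0083 and 0.067 for searched genes with and without the words. Genes with the words also had longer 3' UTRs, with a median of 3124 bases against 1357. GATTAAC was held by 6 members and by 6.34% of searched genes, and of the 6 only SMAD5 was called. Of the 728 searched genes with GATTAAC, 158 were higher, 24 lower and 546 not past the threshold. The median log2 change was -0.058 for these 6 and 0.19 for the other 40 members, the opposite order to all searched genes, at 0.13 with the word and 0.044 without. The words were chosen on these log2 changes, so the counts are a description, and the part of the words in the changes was not tested.

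Among secreted antagonists, FSTL3 was called. FSTL3 binds and neutralizes activins and stood at 77.1, 63.4 and 68.05 TPM in the siCtrl libraries and 89.7, 101.3 and 93.1 TPM in the siNUDT5 libraries. The siNUDT5 libraries were all higher, and siCtrl 2 was the lowest. It rose by 0.44 on the log2 scale (standard error 0.0979, adjusted p = 0.0196, limma), and by 0.38 with adjusted p = 0.0535 after quantile normalization. The related FSTL1 was the most abundant of the group, at 145, 177 and 147 TPM in the siCtrl libraries and 199, 180.1 and 173 TPM in the siNUDT5 libraries. Its groups overlapped through siCtrl 2, and the log2 change of 0.24 was not past the threshold (adjusted p = 0.146). The BMP antagonist NOG had groups that did not overlap, at 43.5 to 49.0 TPM in siCtrl and 51.7 to 59.5 TPM in siNUDT5, with a log2 change of 0.28 (adjusted p = 0.0786). FST, which sequesters activins, was at 53.9 ± 8.92 and 56.2 ± 1.95 TPM (SD, n = 3 per group; log2 change 0.073, adjusted p = 0.728). GREM1, a BMP antagonist, rested on 3, 3 and 1 reads in siCtrl 1 to 3 and on 1, 1 and 0 reads in siNUDT5 1 to 3. These are the smallest whole numbers that fit its values, and GREM1 was not tested.

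Of the 5 receptor-regulated SMADs, SMAD5 alone was called, and its difference from the others was not tested. SMAD5, which carries BMP signals, stood at 12.8, 19.6 and 13.7 TPM in the siCtrl libraries and 28.1, 22.9 and 24.0 TPM in the siNUDT5 libraries. The groups did not overlap, and siCtrl 2 again lay nearest to siNUDT5. It rose from a mean of 15.4 ± 3.71 to a mean of 25.0 ± 2.77 TPM (SD, n = 3 per group), with a log2 change of 0.68 (standard error 0.161, adjusted p = 0.0248, limma). Without siCtrl 2 the log2 change was 0.86 (adjusted p = 5.90e-05). SMAD1, its close relative, stood at 17.8, 21.6 and 19.1 TPM in the siCtrl libraries and 18.2, 19.4 and 19.5 TPM in the siNUDT5 libraries. Its groups overlapped (log2 change -0.030, adjusted p = 0.879). SMAD9, the third of the BMP SMADs, was the lowest, at 3.29, 5.09 and 3.83 TPM in the siCtrl libraries and 3.53, 3.23 and 3.32 TPM in the siNUDT5 libraries. Here siCtrl 2 was the highest library and the groups overlapped (log2 change -0.20, adjusted p = 0.381). SMAD5 made up 37.4% to 42.4% of the summed TPM of the 3 genes in siCtrl and 50.3% to 56.4% in siNUDT5.

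For the TGF-beta and activin branch, SMAD3 was the most abundant SMAD at 63.1, 63.3 and 62.4 TPM in the siCtrl libraries and 59.1, 56.8 and 54.7 TPM in the siNUDT5 libraries. Each siNUDT5 library was slightly lower, with a log2 change of -0.14 that was not past the threshold (adjusted p = 0.242, limma). SMAD2 stood at 17.2, 23.2 and 18.4 TPM in the siCtrl libraries and 19.5, 17.6 and 18.4 TPM in the siNUDT5 libraries. Its groups overlapped (log2 change -0.068, adjusted p = 0.749). SMAD4, the partner of all receptor-regulated SMADs, stood at 11.7, 17.4 and 13.6 TPM in the siCtrl libraries and 13.8, 11.4 and 12.2 TPM in the siNUDT5 libraries. Again siCtrl 2 was the highest, the groups overlapped, and the log2 change was -0.17 (adjusted p = 0.494).

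SMAD7, which recruits ubiquitin ligases to type I receptors, is itself induced by TGF-beta. It stood at 18.9, 19.3 and 19.4 TPM in the siCtrl libraries and 25.5, 24.4 and 23.2 TPM in the siNUDT5 libraries. The siCtrl libraries lay within 0.5 TPM of each other, and all siNUDT5 libraries were higher. It rose from a mean of 19.2 ± 0.252 to a mean of 24.4 ± 1.16 TPM (SD, n = 3 per group), with a log2 change of 0.33 (standard error 0.0870, adjusted p = 0.0377, limma), and missed the threshold after quantile normalization (adjusted p = 0.0529). SMAD6, the inhibitor of the BMP branch, stood at 5.89, 5.07 and 4.61 TPM in the siCtrl libraries and 6.82, 6.27 and 5.36 TPM in the siNUDT5 libraries. Its groups overlapped (log2 change 0.21, adjusted p = 0.308). The SMAD ubiquitin ligase gene SMURF2 was among the most abundant of the set, at 149, 221 and 171 TPM in the siCtrl libraries and 201, 177 and 179.7 TPM in the siNUDT5 libraries, with siCtrl 2 the highest and overlapping groups (log2 change 0.064, adjusted p = 0.795). SMURF1 lay between 33.01 and 35.1 TPM in all 6 libraries.

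SKI, SKIL and TGIF1 encode corepressors that bind SMAD complexes on DNA. SKI stood at 32.3, 29.8 and 29.5 TPM in the siCtrl libraries and 42.5, 40.6 and 41.5 TPM in the siNUDT5 libraries. The groups were apart by more than their own ranges, with means of 30.5 ± 1.55 and 41.5 ± 0.931 TPM (SD, n = 3 per group), a log2 change of 0.43 (standard error 0.0839, adjusted p = 0.0117, limma). SKIL, which TGF-beta induces, stood at 37.6, 68.7 and 43.2 TPM in the siCtrl libraries and 49.4, 38.2 and 44.1 TPM in the siNUDT5 libraries. The value of siCtrl 2 was far above the other 5 libraries, which overlapped, and the log2 change was -0.14 (adjusted p = 0.696). TGIF1 was higher in each siNUDT5 library, at 22.1 to 24.7 TPM in siCtrl and 26.9 to 28.7 TPM in siNUDT5, and was not past the threshold (log2 change 0.26, adjusted p = 0.0860). Without siCtrl 2 its adjusted p was 0.0160.

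The ID genes encode inhibitors of helix-loop-helix transcription factors and are direct targets of BMP SMADs. None of the 4 was called. ID1, the most abundant transcript of all 49, stood at 299, 238 and 277 TPM in the siCtrl libraries and 248, 265 and 228 TPM in the siNUDT5 libraries. Its groups overlapped (log2 change -0.13, standard error 0.103, adjusted p = 0.434, limma), and without siCtrl 2 it was called as lower (log2 change -0.22, adjusted p = 0.0424). ID3 stood at 131, 111 and 139 TPM in the siCtrl libraries and 130.2, 139.6 and 116 TPM in the siNUDT5 libraries. The groups covered nearly the same range (log2 change 0.024, standard error 0.108, adjusted p = 0.914). ID2 stood at 10.4, 9.61 and 10.6 TPM in the siCtrl libraries and 12.5, 12.8 and 10.4 TPM in the siNUDT5 libraries. Of these, siNUDT5 3 lay within the siCtrl range (log2 change 0.20, adjusted p = 0.257). ID4 stood at 6.95, 14.7 and 9.44 TPM in the siCtrl libraries and 10.3, 7.89 and 10.1 TPM in the siNUDT5 libraries. It spread widely within siCtrl, where siCtrl 2 was the highest, and its log2 change was -0.078 with a standard error of 0.230 (adjusted p = 0.857). The summed TPM of the 4 genes was 419 ± 39.6 in siCtrl and 397 ± 30.5 in siNUDT5 (SD, n = 3 per group), within the spread.

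PMEPA1 and TGFBI, both known to be induced by TGF-beta, were higher in siNUDT5. PMEPA1, a membrane protein gene that limits SMAD signaling, stood at 104, 109 and 92.7 TPM in the siCtrl libraries and 131, 124 and 128 TPM in the siNUDT5 libraries. Each siNUDT5 library was above each siCtrl library. It rose by 0.33 on the log2 scale (standard error 0.0860, adjusted p = 0.0356, limma), and was not past the threshold after median-ratio scaling (adjusted p = 0.0605) or quantile normalization (0.0509). TGFBI, a secreted matrix adhesion protein, stood at 42.8, 45.1 and 43.1 TPM in the siCtrl libraries and 55.4, 54.7 and 52.2 TPM in the siNUDT5 libraries. The 2 groups were tight and apart, and it rose by 0.30 (standard error 0.0794, adjusted p = 0.0356), with adjusted p = 0.0602 after quantile normalization.

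Promoter sequences were compared because 11 members were called as higher and SMAD proteins bind short DNA elements. The part of such elements in the changes was not tested. RefSeq promoters on GRCh38.p14 matched 43 of the 49 genes by symbol, and the 250 bases before the start were searched on both strands for the SMAD box CAGAC, the GC-rich SMAD element GGCGCC, the palindrome GTCTAGAC and the TGIF box TGTCA. No motif contains another, but neighbouring matches can share bases, as a SMAD box and the TGIF box of LTBP1 do. The 4 promoters below are those of called genes with the most SMAD boxes (LTBP1, SMAD7), of the TGF-beta target gene PMEPA1 and of the lower gene TGFBR1. They are printed 5' to 3' along the gene's strand, with SMAD boxes (read as CAGAC or GTCTG) and GGCGCC in capitals.
LTBP1, chr2:32946703-32946952, plus strand: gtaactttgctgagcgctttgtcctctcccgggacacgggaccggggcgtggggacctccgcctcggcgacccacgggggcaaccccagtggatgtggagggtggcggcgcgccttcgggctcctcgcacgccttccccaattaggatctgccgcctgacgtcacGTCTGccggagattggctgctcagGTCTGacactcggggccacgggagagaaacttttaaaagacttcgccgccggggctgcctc
SMAD7, chr18:48950966-48951215, minus strand: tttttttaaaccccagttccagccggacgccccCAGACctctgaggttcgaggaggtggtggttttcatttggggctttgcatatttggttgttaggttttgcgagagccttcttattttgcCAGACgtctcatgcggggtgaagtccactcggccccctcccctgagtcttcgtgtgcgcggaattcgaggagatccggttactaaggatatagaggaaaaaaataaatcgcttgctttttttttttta
PMEPA1, chr20:57711473-57711722, minus strand: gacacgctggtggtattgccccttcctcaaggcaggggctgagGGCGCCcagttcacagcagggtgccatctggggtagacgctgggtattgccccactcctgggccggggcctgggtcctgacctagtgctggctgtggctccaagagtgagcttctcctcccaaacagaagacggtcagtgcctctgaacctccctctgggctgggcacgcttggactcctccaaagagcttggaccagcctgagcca
TGFBR1, chr9:99104863-99105112, plus strand: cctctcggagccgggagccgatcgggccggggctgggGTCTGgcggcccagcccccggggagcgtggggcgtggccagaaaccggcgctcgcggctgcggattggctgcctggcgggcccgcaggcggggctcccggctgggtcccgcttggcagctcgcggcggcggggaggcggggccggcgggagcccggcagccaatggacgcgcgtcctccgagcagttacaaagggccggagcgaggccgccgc
LTBP1 held 2 SMAD boxes, starting 85 and 61 bases before the start, and SMAD7 held 2, starting 217 and 128 bases before it. TGFBR1 held 1, and PMEPA1 held 1 GGCGCC. The 10 called members with a promoter included the lower gene TGFBR1 and lacked BMP7 and SKI. Of the 10, 3 held CAGAC (LTBP1, SMAD7 and TGFBR1), against 35.7% of 9223 promoters of tested genes. GGCGCC was in 3 of the 10, against 26.5%, and TGTCA in 1, against 23.7%. The palindrome was in 0.163% of those promoters and, among members, in SMAD6, which was not called. The 4 ID promoters held 2 SMAD boxes, in ID3 and ID4, and no GGCGCC. A match is a description of letters, and its absence says only that they are not in this window. Where a gene had several promoters only the first listed was searched, so other starts are not covered.

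Of 147 further genes of the pathway, listed by role, 146 were in the table and 96 were tested. Of the 96, 30 were higher, 4 lower and 62 not past the threshold. That is 35.4% called, where 16.1% of all tested genes were, with a median log2 change of 0.20 against 0.048. These genes were listed with earlier results of these data known. The share called and the median are therefore a description, and neither was tested.

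Genes that store and activate latent TGF-beta gave 6 higher and no lower among 13 tested, with 7 not past the threshold, LTBP4 among them. That is 46.2% higher, where 10.9% of all tested genes were higher and 5.20% lower. This list and the next ones were made with earlier results of these data known. ITGB8, the beta chain of an integrin that frees TGF-beta, rose from a mean of 7.54 ± 1.64 to a mean of 20.2 ± 2.98 TPM (SD, n = 3 per group; log2 change 1.32, adjusted p = 0.00196, limma). THBS1, a matrix protein that can activate the latent form, rose from 299 ± 31.8 to 579 ± 10.8 TPM (log2 change 0.96, adjusted p = 0.000679). The membrane protease gene MMP14 (0.84) and FURIN (0.71), the convertase that cuts the propeptide, also rose. These 4 passed under all 13 alternatives, with adjusted p up to 0.0373, the value of FURIN. Of the remaining ligands 1 of 2 tested was higher, GDF11 (log2 change 0.47), and 19 were too low to test. Among 5 further receptor and co-receptor genes 2 were higher. They were RGMA, a BMP co-receptor, at 4.20 ± 1.08 and 11.9 ± 0.867 TPM (log2 change 1.33, adjusted p = 0.00202), and ENG, or endoglin (0.60). Among 4 further antagonists and modulators BMPER (0.45) and NBL1 (0.43) were higher. GDF11 and ENG lost their calls without siNUDT5 1 or 2, with adjusted p up to 0.0519 and 0.0756. BMPER and NBL1 lost theirs without any 1 library other than siCtrl 2, with adjusted p up to 0.120 and 0.172, and NBL1 also after quantile normalization (0.0810), median-ratio scaling (0.0683) or with no filter (0.0691). With the replicate number as a block, GDF11, ENG, BMPER and NBL1 all lost their calls.

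Intracellular regulators gave 4 higher and no lower among 31 tested, 12.9% against the 16.1% of all genes. They were the deubiquitinase gene USP11 (log2 change 0.50), TGFBRAP1, which encodes a receptor-associated protein (0.45), the phosphatase gene CTDSPL (0.40) and FKBP1A (0.26), whose product binds type I receptors. CTDSPL and FKBP1A lost their calls without siCtrl 3 or any 1 siNUDT5 library, with adjusted p (limma) up to 0.0997 and 0.154, and FKBP1A also after median-ratio scaling (0.104). With the replicate number as a block all 4 lost their calls, USP11 with adjusted p = 0.0583 and TGFBRAP1 with 0.0805 (limma).

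The list of TGF-beta target genes split in both directions, with 9 higher and 4 lower of 28 tested. That is 32.1% and 14.3%, against 10.9% and 5.20% of all tested genes. CLDN1, a tight junction gene, fell from a mean of 19.8 ± 4.75 to a mean of 8.27 ± 1.03 TPM (SD, n = 3 per group; log2 change -1.15, adjusted p = 0.00359, limma), and CYR61, a matricellular protein gene, from 755 ± 35.0 to 395 ± 15.8 TPM (-0.93, adjusted p = 0.000320). ADAM12, a metalloprotease, rose from 8.75 ± 0.883 to 17.3 ± 0.214 TPM (0.91, adjusted p = 0.00150), and PTHLH, the parathyroid hormone-related protein gene, from 9.18 ± 0.730 to 16.6 ± 0.931 TPM (0.79, adjusted p = 0.00227). BMP target genes outside the ID family gave 6 higher and no lower of 13 tested, which is 46.2% higher against 10.9% of all tested genes. Both target lists were made with earlier results known, so these shares are a description. NKX3-2, a skeletal homeobox gene, rose from 2.33 ± 0.991 to 5.87 ± 0.534 TPM (1.08, adjusted p = 0.00859). The homeobox genes MSX2 (0.70) and MSX1 (0.59) and the decoy receptor gene TNFRSF11B (0.61) also rose. TNFRSF11B lost its call without siCtrl 1 or 3 or any 1 siNUDT5 library, with adjusted p up to 0.132, and with no filter (0.0690). With the replicate number as a block, TNFRSF11B and MSX1 lost their calls, MSX1 with adjusted p = 0.0524 (limma). Many of these genes answer to other pathways too, and which signal moved them was not tested.

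**Figure D5:**
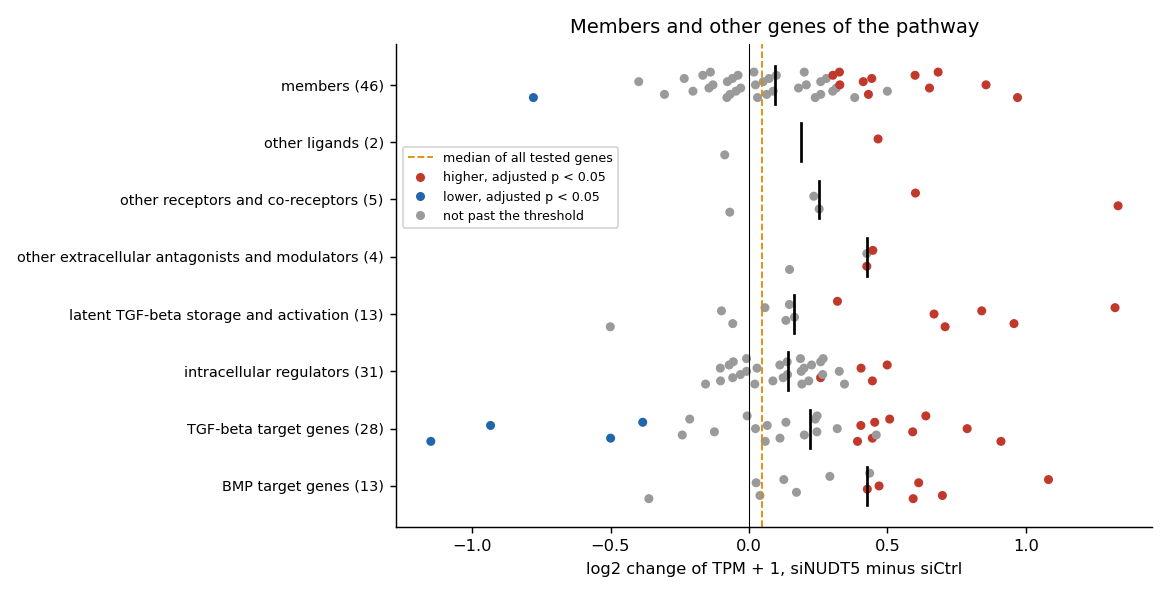
Log2 change (x axis, siNUDT5 minus siCtrl) of the 46 tested members and of the tested genes of 7 further lists (rows, number tested in brackets), with red for higher, blue for lower and grey for not past the threshold. Black bars mark each list's median, the dashed line the median of all tested genes at 0.048, and blue points appear only for TGFBR1 among members and in the TGF-beta target list.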

How the data were processed

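RNA of 6 U2OS libraries, grouped by their titles, was sequenced with a strand-specific KAPA mRNA kit, per the labels' protocols. The authors deposited TPM per gene symbol, with the same total in each library. STAR 2.7.3a, DESeq2 1.22.1 and hg19 appear in the submitters' processing notes with no role attached. How TPM were computed, the annotation, strand use and shared reads: not given in the sources used here.

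Since TPM are not counts, limma 3.58.1 in R 4.3.3 (lmFit, eBayes with a trend) was run on log2(TPM + 1), which understates changes of low genes, for siNUDT5 minus siCtrl. It took the 12236 genes whose mean reached 1 TPM, and p-values were adjusted by Benjamini-Hochberg over all of them. When tested on simulated data with these samples' means and 12236 genes, it recovered 38 of 100 log2 changes of 0.5 and 91 of 100 of 1, with 6 false calls. The simulation changed only those genes and drew noise separately for each gene and library. In the real data 16.1% of genes were called and siCtrl 2 stood apart, so these figures may not hold for the reported fit. The depth ratios rest on 854 genes present in all libraries at under 0.3 TPM in siCtrl 1, whose values move by whole reads. For 57.6% to 73.8% of them the ratio to siCtrl 1 was that of small integers, of at most 5, to within 0.1%.

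The members and lists were chosen with earlier results of these data known. Named genes are all members, and up to 4 called genes of each further list by size of change. Alternatives were a pseudocount of 0.1 or 5, a minimum mean of 5 TPM or none, scaling by median ratios, quantile normalization, a block for the replicate number, and each library left out in turn. Promoters are RefSeq's (GRCh38.p14), and a gene's 3' UTR is its longest of at least 50 bases in GENCODE 29. Both were matched by symbol. Figures were drawn in Python 3.11.15 with matplotlib 3.10.9.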

Additional observations from a re-analysis of the deposited data

How the results depend on the processing

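Of the 12 called members, TGFB1, LTBP1 and TGFBR3 stayed past the threshold under all 13 alternatives, and none changed sign. Leaving out 1 library gave 3 to 19 members higher and 0 to 2 lower, and 520 to 2672 genes higher and 213 to 1132 lower, with the highest counts of higher genes without siCtrl 2. Quantile normalization left 7 members higher and 1 lower, and over all genes 1018 higher and 965 lower. Median-ratio scaling left 10 members higher and 1 lower, and over all genes 1034 higher and 904 lower, against 1334 and 636 as reported. Without a filter 0 members were lower. Why these counts moved was not tested; fits without a library have fewer samples.

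Libraries with the same replicate number did not deviate alike from their group means, which cannot show whether they were handled together. The deviations of siCtrl and siNUDT5 libraries with the same number correlated at -0.43, -0.54 and -0.045 over genes, and siCtrl 1 and siCtrl 3 correlated best with siNUDT5 2 and siCtrl 2 with siNUDT5 1. With the replicate number as a block, 3 members were higher and 0 lower, and 486 genes were higher and 253 lower.

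Changes of sign occurred only in members not past the threshold. Log2 changes after median-ratio scaling and quantile normalization were -0.0355 and -0.0544 for BMP1, -0.0002 and -0.0245 for ACVR2B, -0.0246 and -0.0258 for SMURF1 and -0.033 and -0.0243 for ID3. Without 1 library, log2 changes ran from -0.0936 to 0.117 for BMP1, from -0.157 to 0.132 for BMPR1A, from -0.181 to 0.0568 for ACVR2A, from -0.148 to 0.0844 for BMPR2, from -0.0339 to 0.196 for FST, from -0.0900 to 0.0432 for SMAD1, from -0.152 to 0.0534 for SMAD2, from -0.0634 to 0.220 for SMURF2, from -0.314 to 0.112 for SKIL, from -0.0665 to 0.0932 for ID3 and from -0.308 to 0.185 for ID4. At the depth of these libraries INHBB, BMP8B and GREM1 rest on 0 to 3 reads each, in the smallest whole numbers that fit their values. True counts may be multiples of these. No difference was detectable in the 3 genes.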
